A study of Mus musculus with 106 samples.

Results

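NOD/ShiLtJ is the inbred non-obese diabetic mouse, and its liver on a control chow was compared here with the chow livers of 8 other inbred strains. The members were the 6 samples labelled NOD/ShiLtJ on the chow (CD), 3 f and 3 m mice, of 106 samples in the whole series. The comparison used 47 chow samples of 129S1/SvImJ, A/J, C57BL/6J, CAST/EiJ, DBA/2J, NZO/HlLtJ, PWK/PhJ and WSB/EiJ, with 3 mice of each strain and sex except 129S1/SvImJ f. The strains were bought and then bred in 1 facility, the mice ate the chow from week 8 of life, and perfused livers were taken at 21 weeks between 8:30 and 10:30 in the morning. Fat supplied 6% of the calories of the chow and 60% of those of the high-fat diet that the remaining mice of the series ate. Apart from diet the mice had no treatment, and the labels name no transgene. Each group is thus 1 inbred genotype, and its mice are repeats of that genotype.

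NOD mice develop autoimmune destruction of the pancreatic beta cells, with females affected more often than males, and they are the standard inbred model of type 1 diabetes. Much of this susceptibility maps to the major histocompatibility complex, where the strain carries an unusual class II haplotype and lacks the E alpha chain. The strain is also known for a deficiency of complement component C5, encoded by Hc, which A/J and DBA/2J share. Liver holds hepatocytes, Kupffer cells, sinusoidal endothelium, stellate cells, bile duct cells and resident lymphocytes, and bulk RNA mixes all of them. The labels give no blood glucose or diabetes status for these mice.

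The total of gene counts was 42061153 to 52901470 in the 6 NOD/ShiLtJ libraries and 38773478 to 63341708 in the other 47. Reads that did not align uniquely made up 15.5% to 16.2% of all reads in the 3 f and 19.3% to 21.5% in the 3 m libraries of the strain, against 13.4% to 26.5% elsewhere. Each NOD/ShiLtJ library correlated best with a NOD/ShiLtJ library of its own sex (Pearson's r across genes of 0.987 to 0.992). A further chow library labelled 129S1/SvImJ f was left out, because it correlated best with an m library of its strain (r = 0.994). The labelled tissue carried its markers: hepatocyte genes summed to 128325 to 170537 CPM (counts scaled to the library size) in NOD/ShiLtJ f and to 132310 to 136581 in m livers. The same 14 genes summed to 97144 to 219350 CPM over all other libraries, and 4 of them were called higher and 1 lower by the test described next (35.7%, against 31.8% of all genes), which fell to 2 calls without any 1 of 5 NOD/ShiLtJ libraries, all but f replicate 1.

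In the fit over 14330 genes, 2309 were higher and 2250 lower in NOD/ShiLtJ than in the equally weighted mean of the other strains, so that 31.8% were called (16.1% higher, 15.7% lower). A call is a Benjamini-Hochberg adjusted p below 0.05 in edgeR's quasi-likelihood test, with f and m averaged. The log2 fold changes are means of log ratios over strains, and their median over all genes was -0.01. At least 1 on the log2 scale was reached by 1009 called genes (7.04% of those tested), 508 higher and 501 lower. NOD/ShiLtJ had the highest strain mean for 924 genes (6.45%) and the lowest for 1026 (7.16%). Set against 1 strain at a time, it differed in 2614 genes from 129S1/SvImJ, in 2905 from DBA/2J, in 3100 from A/J, in 4068 from C57BL/6J and in 4904 from NZO/HlLtJ. It differed in 6480 genes from PWK/PhJ, in 7346 from WSB/EiJ and in 8054 from CAST/EiJ, and all these counts share the NOD/ShiLtJ mice. The adjusted p-values measure the spread between mice within a genotype. With strain means as the unit, 4 genes passed (0.0279% of those tested) and 210 (1.47%) had an unadjusted p below 0.05 in limma.

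The clearest feature of the strain was the near absence of B4galnt1, the enzyme that makes the GM2 and GD2 gangliosides. B4galnt1 (ENSMUSG00000006731, GRCm38 chr10:127165225-127172330, plus strand) stood at 2.46, 1.49 and 1.79 CPM in the 3 f and at 1.12, 0.74 and 1.46 CPM in the 3 m NOD/ShiLtJ livers. In the other 47 livers it ran from 44.5 through a median of 99.2 to 187 CPM. The lowest liver of any other strain was thus far above the highest NOD/ShiLtJ liver, in both sexes. The log2 fold change was -6.11 ± 0.16 (SE, adjusted p = 1.35e-29), from means of 1.51 ± 0.59 (SD, n = 6 mice) and 103 ± 22.2 CPM (SD over 8 strains). The gene Slc26a10 overlaps its exons on the opposite strand, and Slc26a10 itself was at 3.17 against 2.60 CPM. Cyp2a12, a hepatic P450 that hydroxylates bile acids and steroids (chr7:27029081-27037375), had 36.1, 39.5 and 30.1 CPM in f and 46.6, 76.0 and 27.1 CPM in m NOD/ShiLtJ livers. The other livers held 341 to 986 CPM with a median of 591, again without overlap, and the log2 fold change was -3.85 ± 0.15 (adjusted p = 3.47e-23). B4galnt1 and Cyp2a12 were also the 2 genes called lower with strain means as the unit (limma adjusted p = 6.11e-05 and 0.000757).

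In 41 genes (0.286% of those tested) the 6 NOD/ShiLtJ chow libraries did not overlap the 47 others, 26 above (0.181%) and 15 below (0.105%). All 41 were also called in the same direction in separate mice on the high-fat diet, where 25 of them again did not overlap. Among the lower ones, Ttll8, a tubulin glycylase, had at most 2 counts in any NOD/ShiLtJ library against 0.056 to 11.5 CPM elsewhere, and no fold is given because its fitted value depends on the prior count. Ctsk, the lysosomal protease cathepsin K, was at 0.0185 to 0.117 CPM against 0.49 to 2.7 CPM. Acot11, an acyl-CoA thioesterase, was at 0.333 to 0.721 against 0.927 to 18.4 CPM, and the actin-capping gene Capg was at 0.431 to 0.918 against 1.41 to 10.8 CPM. These genes are low in bulk liver, and a lower level per cell and fewer expressing cells cannot be told apart here or in any result below. Rmnd1, which serves mitochondrial translation, was at 5.03 to 8.25 CPM against 13.1 to 26.4 CPM, a log2 fold change of -1.53 ± 0.07 (adjusted p = 1.8e-20). Gm16153, on the opposite strand of Rmnd1, was called lower as well (0.725 against 1.86 CPM, log2 fold change -1.20, adjusted p = 3.51e-07 in edgeR's test). Desi1, a SUMO isopeptidase, was at 19.3 to 27.6 against 33.8 to 59.0 CPM, while Xrcc6 on the opposite strand did not pass (log2 fold change 0.00). Slc37a2, a sugar phosphate transporter, Macrod2, an ADP-ribose hydrolase, and Bbs2, a subunit of the ciliary BBSome, were lower by log2 fold changes of -1.69, -1.33 and -0.94. Their highest NOD/ShiLtJ livers (1.48, 1.77 and 2.39 CPM) lay close to the lowest of the others (1.51, 1.80 and 2.50 CPM).

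**Figure D1:**
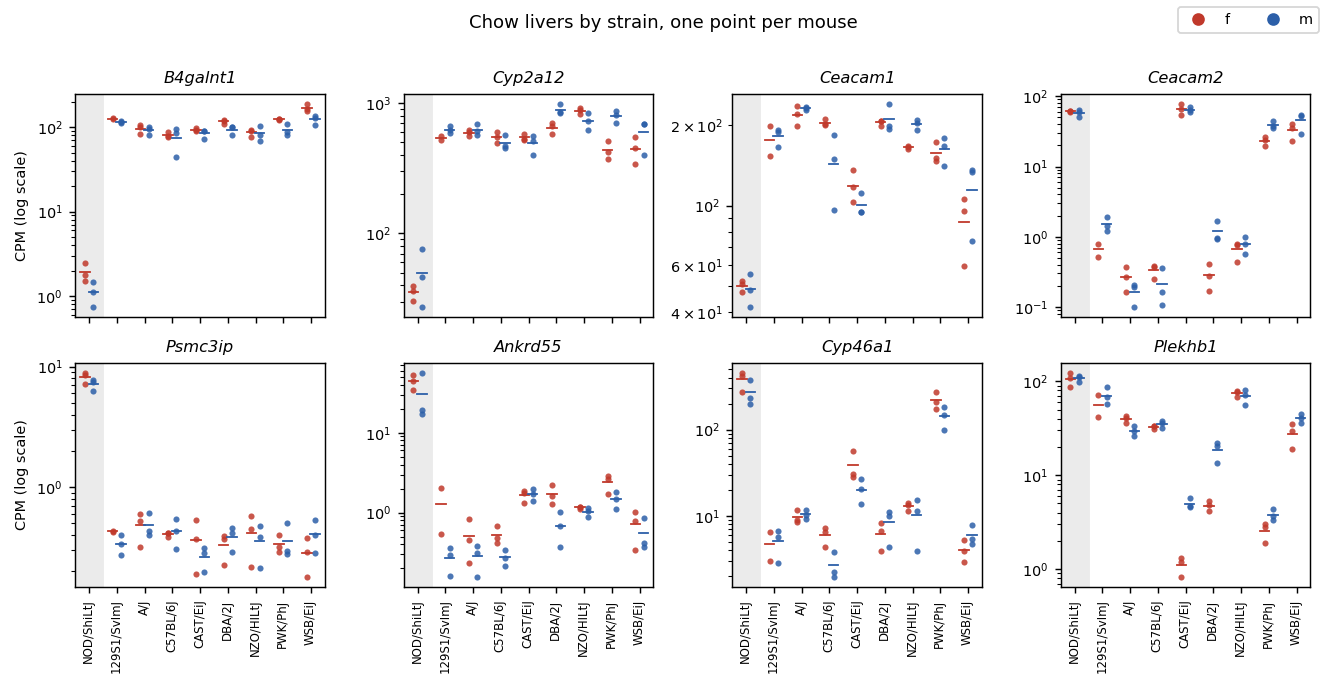
CPM on a log axis for 8 genes in the chow livers of 9 strains; each point is 1 mouse (f red, m blue), each bar the mean of a strain and sex, and the NOD/ShiLtJ column is shaded. B4galnt1, Cyp2a12 and Ceacam1 lie below, and Psmc3ip, Ankrd55 and Plekhb1 above, every liver of the other strains, whereas Ceacam2 and Cyp46a1 are also high in CAST/EiJ, PWK/PhJ or WSB/EiJ.

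On the higher side, Psmc3ip, a cofactor of meiotic recombinases (chr11:101091823-101095436, minus strand), was at 8.46, 7.13 and 8.79 CPM in f and 7.52, 6.23 and 7.73 CPM in m NOD/ShiLtJ livers. No other liver exceeded 0.61 CPM, and their median was 0.386 CPM. The log2 fold change was 4.34 ± 0.12 (adjusted p = 5.07e-29), and the gene also passed with strain means as the unit (limma adjusted p = 0.00816). Mlx, which overlaps Psmc3ip on the opposite strand, was at 26.2 against 23.8 CPM and was not called (adjusted p = 0.0816). Ankrd55, an ankyrin repeat gene (chr13:112288451-112384002, plus strand), reached 53.2, 45.0 and 34.7 CPM in f and 19.2, 55.3 and 17 CPM in m livers. The other strains held 0.158 to 2.87 CPM, so that even the lowest NOD/ShiLtJ m liver lay above them all, and the log2 fold change was 5.49 ± 0.15 (adjusted p = 1.88e-28). Gm48837, on the opposite strand of Ankrd55, was higher as well (1.63 against 0.106 CPM). The strand used in counting is not given in the sources used here, so reads of 2 overlapping genes cannot be told apart.

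The other non-overlapping genes named here were higher by smaller amounts. Trim6, a ubiquitin ligase, was at 10.8 to 22.8 CPM against 0.202 to 7.22 CPM (log2 fold change 2.91 ± 0.16, adjusted p = 3.08e-18). Plekhb1, a pleckstrin homology domain gene, was at 86.0 to 121 CPM, while the highest other liver had just under 86.0 CPM and CAST/EiJ and PWK/PhJ averaged 3.05 and 3.18 CPM. Tor4a, a torsin, varied little within NOD/ShiLtJ (14.9 to 16.1 CPM) and was at 1.89 to 13.9 CPM elsewhere. Pde7b, a cAMP phosphodiesterase, was at 16.9 to 24.2 against 1.69 to 14.1 CPM. Ptk7, a receptor-like pseudokinase, was at 3.47 to 7.45 against 0.294 to 2.45 CPM, and the kinase gene Camk1 was at 22.8 to 28.1 against 9.75 to 20.7 CPM. Mamdc2, Ptgfrn, Panx2 and Tmed6 were higher by log2 fold changes of 1.82, 1.55, 2.92 and 3.58, and the value of Tmed6 depends on the prior count, since it was near 0 counts in 5 of the 16 other groups, and was 2.99 without CAST/EiJ, PWK/PhJ and WSB/EiJ. Panx2 was barely separate, at 0.814 to 2.72 against 0.0169 to 0.813 CPM, and its lowest values elsewhere were near the floor. Fcgr2b, the inhibitory Fc gamma receptor, was named after its values were seen. It stood at 80.9 to 96.0 CPM in NOD/ShiLtJ and at 27.4 to 79.8 CPM elsewhere, a log2 fold change of 0.62 ± 0.08 (adjusted p = 8.67e-08).

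A pair of neighbouring paralogues went in opposite directions. Ceacam1, a cell adhesion receptor of hepatocytes that promotes insulin clearance, was at 50.8, 47.5 and 52.1 CPM in f and 55.6, 48.6 and 41.7 CPM in m NOD/ShiLtJ livers, below the 59.5 to 239 CPM of all others. Its log2 fold change was -1.70 ± 0.11 (adjusted p = 4.64e-16). Ceacam2, its closest paralogue, was at 60.9, 60.1 and 62.2 CPM in f and 60.2, 63.9 and 51.5 CPM in m. The other strains fell apart for Ceacam2: A/J, C57BL/6J, NZO/HlLtJ, DBA/2J and 129S1/SvImJ averaged 0.216 to 1.08 CPM, and PWK/PhJ, WSB/EiJ and CAST/EiJ averaged 31.0, 39.1 and 65.0 CPM. The log2 fold change over all 8 was 4.55 ± 0.10 (adjusted p = 4.85e-32), with NOD/ShiLtJ second from the top, and 6.99 without CAST/EiJ, PWK/PhJ and WSB/EiJ. WSB/EiJ and CAST/EiJ were also the strains with the next lowest Ceacam1, at 101 and 110 CPM. Because the coding sequences of the pair are close, reads may be divided uncertainly between them. The 250 bases before the start of each gene in the RefSeq promoter table (GRCm38.p6) are shown because the pair moved apart, with capitals on the stretch that aligned between them. Ceacam1 is read from chr7:25477626-25477875, minus strand, and Ceacam2 from chr7:25540005-25540254, minus strand.
Ceacam1: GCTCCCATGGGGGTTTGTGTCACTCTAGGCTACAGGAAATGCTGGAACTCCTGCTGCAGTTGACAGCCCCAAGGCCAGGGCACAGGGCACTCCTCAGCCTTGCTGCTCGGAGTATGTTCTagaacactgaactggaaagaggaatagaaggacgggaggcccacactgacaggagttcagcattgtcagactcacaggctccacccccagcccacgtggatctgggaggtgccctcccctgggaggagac
Ceacam2: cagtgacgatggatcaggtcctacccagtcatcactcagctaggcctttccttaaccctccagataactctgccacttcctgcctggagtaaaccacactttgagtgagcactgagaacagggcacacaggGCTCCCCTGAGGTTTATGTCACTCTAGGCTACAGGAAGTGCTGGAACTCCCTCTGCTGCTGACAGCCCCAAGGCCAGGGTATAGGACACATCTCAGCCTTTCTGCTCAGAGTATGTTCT
The aligned stretch had 104 identical bases, 15 mismatches and 1 gap. It begins 250 bases before the start of Ceacam1 but 119 bases before that of Ceacam2. These are reference sequences, not those of NOD/ShiLtJ.

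Other abundant genes differed in ways that some other strains shared in part. Cyp46a1, the cholesterol 24-hydroxylase best known from brain (chr12:108334381-108362234), was at 422, 448 and 274 CPM in f and 232, 197 and 379 CPM in m NOD/ShiLtJ livers. PWK/PhJ averaged 181 and CAST/EiJ 29.4 CPM, and the 6 remaining strains averaged 4.36 to 11.6 CPM, for a log2 fold change of 4.75 ± 0.15 (adjusted p = 9.61e-27). Sdr9c7, a short-chain dehydrogenase, averaged 189 CPM against 0.249 CPM in PWK/PhJ and 166 CPM in DBA/2J. Rad51b, a recombination gene, averaged 113 CPM against 1.79 to 60.6 CPM in the other strains. Vcp-rs and Gm13394 are near copies of other genes, so their counts are uncertain. Vcp-rs averaged 104 CPM in NOD/ShiLtJ, 78.9 in PWK/PhJ, 85.8 in CAST/EiJ and 3.2 to 4.42 CPM in the rest, and Gm13394 averaged 84.7 CPM, within the 77.0 to 86.1 CPM of A/J, NZO/HlLtJ and DBA/2J. Gm4788 averaged 3.31 CPM against 1.54 CPM in WSB/EiJ and 135 to 237 CPM in the other 7 strains. The size of the Serpina4-ps1 difference depended on 1 liver: m replicate 2 had 548 CPM and the other 5 had 30.0 to 64.2 CPM. Without that library its log2 fold change went from 3.03 to 1.73, still called in edgeR's test (adjusted p = 9.63e-05). Without CAST/EiJ, PWK/PhJ and WSB/EiJ it was 4.14. Under that setting the log2 fold change of Cyp46a1 was 5.53.

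In 20 genes of the major urinary protein (Mup) family, pheromone carriers made mostly by male liver, 2 were called higher and 14 lower with the sexes averaged (against 31.8% of all genes called), with a median log2 fold change of -2.41. In f mice 1 was higher and 15 lower, where 11.4% of all genes were higher and 8.86% lower. In m mice 7 were higher and 9 lower, where 13.6% of all genes were higher and 12.1% lower. In the m minus f test 7 of the 20 passed, against 1.90% of all genes. Mup2, for example, was at -2.45 in f and 1.02 in m. In f NOD/ShiLtJ livers Mup6, Mup8, Mup13, Mup15 and Mup16 averaged 0 CPM, and Mup10, Mup11 and Mup19 averaged 0.006 to 0.007 CPM. The fitted values of these copies, and with them the family median, depend on the prior count. Any f calls among them rest on NOD/ShiLtJ counts at or near 0. This family was picked out after the ranking had placed Mup18, Mup11 and Mup12 among the largest differences. Mup18 was at 0.129, 0.0794 and 0.0835 CPM in f and 1.14, 0.665 and 0.862 CPM in m NOD/ShiLtJ livers, against a median of 13.8 and a maximum of 834 CPM elsewhere. Of the 2 called higher, Mup20 averaged 1093 CPM in m and had a log2 fold change of -0.29 in f and 1.62 in m (m minus f 1.91, adjusted p = 0.0254), and Mup3 was the more abundant, at 1076 CPM in f and 5777 CPM in m means, a log2 fold change of 1.26 (adjusted p = 2.48e-09). The summed Mup level of NOD/ShiLtJ lay inside the range of the others, at 678 to 1309 against 75.9 to 2484 CPM in f and 7085 to 9321 against 2097 to 33041 CPM in m. Mup genes are nearly identical copies, so that uniquely aligned reads divide them uncertainly, and whether strain sequence moved reads between copies was not tested.

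**Figure D2:**
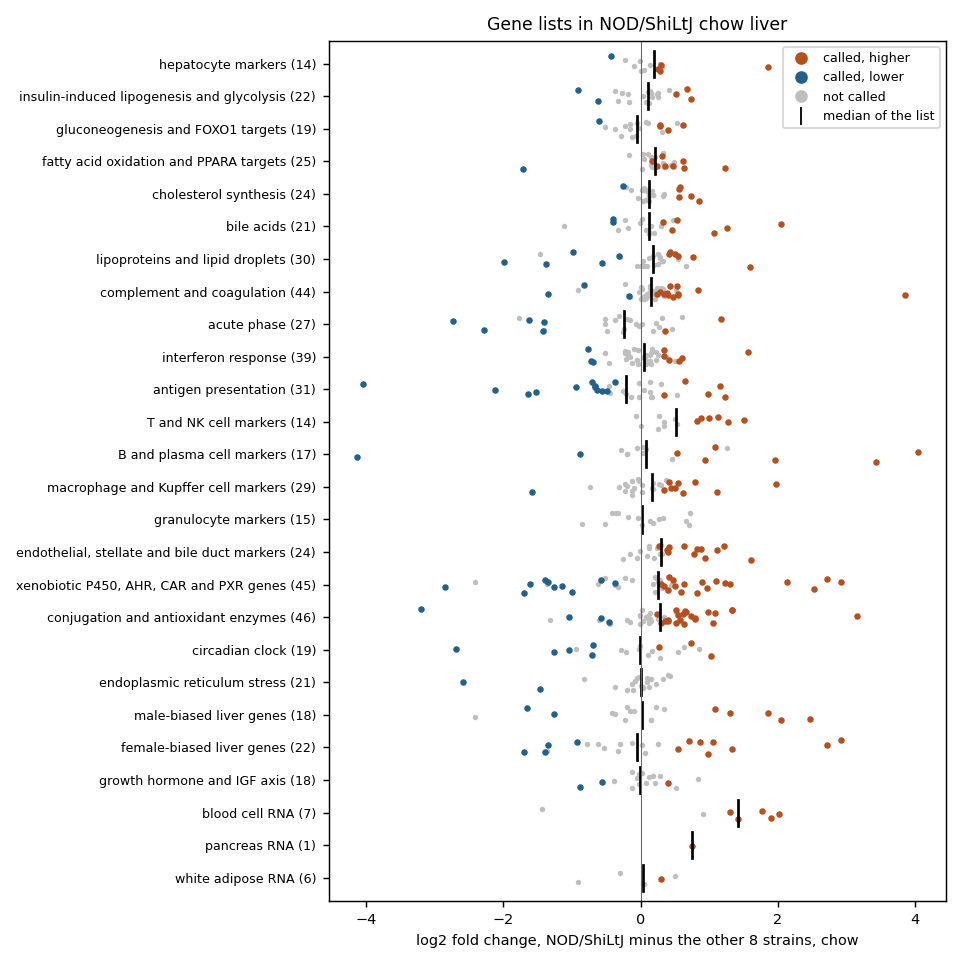
The log2 fold change of NOD/ShiLtJ against the other 8 strains on chow for every member found of 26 gene lists; orange and blue points are called higher and lower, grey points not called, and the black tick is the median. The P450 and conjugation lists have 28 of 45 and 26 of 46 members called, and the granulocyte list none of 15.

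The class I genes of the major histocompatibility complex, which present peptides to T cells, were divided. Of 31 antigen presentation genes, 5 were called higher and 12 lower, 54.8% against 31.8% of all genes, with a median log2 fold change of -0.21. By sex, 7 were higher and 4 lower in f (median 0.03) and 4 higher and 13 lower in m livers (median -0.55), and 0 of the 31 passed in the m minus f test of edgeR (16 at an unadjusted p below 0.05). The share called of each list below is likewise to be read against that 31.8%. H2-K1 (chr17:33996017-34000347) was at 210, 229 and 216 CPM in f and 178, 171 and 173 CPM in m NOD/ShiLtJ livers. The others ran from 178 through 559 to 1956 CPM, so that only PWK/PhJ came near, and the log2 fold change was -1.63 ± 0.11 (adjusted p = 2.89e-15). H2-D1 went the other way, with 849 to 904 CPM in f and 593 to 688 CPM in m livers against a median of 567 CPM, and a log2 fold change of 0.64 ± 0.08 (adjusted p = 5.13e-08). Without CAST/EiJ, PWK/PhJ and WSB/EiJ that difference was lost (0.08, adjusted p = 0.559). The nonclassical H2-T23 and H2-T22 were lower by log2 fold changes of -2.12 and -1.52 (H2-T22 by -2.14 without CAST/EiJ, PWK/PhJ and WSB/EiJ), and the peptide transporter subunit Tap1 by -0.71. Among class II genes, H2-Ab1 was called lower (-0.66, adjusted p = 0.0222), and H2-Aa was not (-0.46), although it was without CAST/EiJ (-0.62, adjusted p = 0.0407), WSB/EiJ (-0.70, adjusted p = 0.0156) or all of CAST/EiJ, PWK/PhJ and WSB/EiJ (-0.72, adjusted p = 0.0312). The H2-Ab1 call was lost without f replicate 1 or 2, m replicate 1 or 2, A/J or PWK/PhJ (adjusted p of 0.0513 to 0.108). H2-Eb1 was not called (0.53, adjusted p = 0.0645), and its direction depended on the strains it was set against. It was called higher, at 0.67 to 0.83, without A/J, 129S1/SvImJ, NZO/HlLtJ, DBA/2J or C57BL/6J (adjusted p of 0.000616 to 0.0202), stood at -0.26 (adjusted p = 0.449) without WSB/EiJ, and was called lower at -1.06 (adjusted p = 0.0053) without CAST/EiJ, PWK/PhJ and WSB/EiJ. H2-Ea-ps, the E alpha locus, was at 0.055 to 0.333 CPM in NOD/ShiLtJ, like the 0.060, 0.088 and 0.111 CPM of PWK/PhJ, C57BL/6J and 129S1/SvImJ, and at 6.53 to 44.0 CPM in the other 5 strains. H2 alleles differ between strains in sequence, and the part of this in the counts was not tested.

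Of 44 complement and coagulation genes, secreted mostly by hepatocytes, 12 were higher and 3 lower (34.1% called, against 31.8% of all genes). Hc, encoding C5, was at 138, 154 and 163 CPM in f and 183, 227 and 149 CPM in m livers, between the means of A/J (156) and DBA/2J (196) and below the 482 to 716 CPM of the 6 other strains. C1rb, a paralogue of the protease C1r, was at 11.7 to 17.2 CPM in 5 livers and at 110 CPM in m replicate 3. C57BL/6J, 129S1/SvImJ and NZO/HlLtJ averaged 0.052 to 0.144 CPM for C1rb, and its log2 fold change went from 3.86 to 3.08 without that library and to 5.29 without CAST/EiJ, PWK/PhJ and WSB/EiJ. C9, of the membrane attack complex, was higher by 0.83 ± 0.13 (adjusted p = 1.84e-06), and F12 by 0.53. Without NZO/HlLtJ 23 of the 44 genes were called, and without CAST/EiJ, PWK/PhJ and WSB/EiJ 4 were.

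The acute phase list had 2 genes called higher and 5 lower of 27 (25.9%), with a median of -0.24, and 3 higher and 1 lower in f against 1 higher and 5 lower in m livers. Of all genes 11.4% were higher and 8.86% lower in f, and 13.6% higher and 12.1% lower in m livers. In the m minus f test of edgeR 0 of the 27 passed (4 at an unadjusted p below 0.05), so a difference between the sexes was not shown. Mt1, the metallothionein that buffers zinc, was at 240, 291 and 119 CPM in f and 237, 34.5 and 108 CPM in m livers, and its strain mean was the lowest of 9 (log2 fold change -1.41 ± 0.34, adjusted p = 0.00111). Without m replicate 2 the list had 4 called genes, and without NZO/HlLtJ 12, of which 5 were higher. Hamp, encoding the iron hormone hepcidin, was at 1461 to 1528 CPM in f and 924 to 1062 CPM in m livers against a median of 699 CPM, a log2 fold change of 1.18. Its neighbour Hamp2 was lower (3.90 against 165 CPM, log2 fold change -2.74, or -3.56 without m replicate 1 and -2.01 without NZO/HlLtJ). Saa2 was called lower with an adjusted p of 0.0433, a call lost when any 1 NOD/ShiLtJ library was left out (adjusted p of 0.0691 to 0.0999). Of 39 interferon response genes 6 were higher and 3 lower (23.1%), a balance that held neither in each sex nor when samples were left out. In f livers 6 were higher and 1 lower (median 0.30), and in m livers 1 was higher and 4 lower (median -0.18). The shares of all genes by sex are those given above for the acute phase list. In the m minus f test of edgeR 0 of the 39 passed (7 at an unadjusted p below 0.05), against 1.90% of all genes. A difference between the sexes was thus not shown. The balance was 2 higher and 4 lower without m replicate 2, 3 and 4 without CAST/EiJ, 1 and 6 without WSB/EiJ, and 2 and 16 without CAST/EiJ, PWK/PhJ and WSB/EiJ. On the high-fat diet 2 of the list were higher and 15 lower (median -0.30). Iigp1, an immunity-related GTPase, was higher by 1.56, with CAST/EiJ at 0.952 CPM, and by 0.54 without CAST/EiJ. Ifih1, the RNA sensor MDA5, had the lowest strain mean of 9 (-0.69 ± 0.11, adjusted p = 2.71e-06).

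Lymphocyte markers were low in all livers. Of 14 T and NK cell markers 6 were called higher and 0 lower in edgeR's test (7 and 0 at an unadjusted p below 0.05, and 6 calls in DESeq2), with a median of 0.52 and 42.9% called. Without CAST/EiJ, PWK/PhJ and WSB/EiJ 2 were higher and 1 lower. Cd4, the coreceptor of helper T cells, was at 2.72, 3.08 and 2.84 CPM in f and 2.13, 2.57 and 1.85 CPM in m livers, against a median of 1.03 and a maximum of 4.13 CPM elsewhere (log2 fold change 1.28 ± 0.17, adjusted p = 5.77e-08). Gzmb, a granzyme of cytotoxic cells, was at 1.09 to 1.46 CPM in f and 0.294 to 0.474 CPM in m livers. In f livers 9 of the 14 were called higher (11.4% of all genes were) and in m livers 1 (13.6% of all genes were). In the m minus f test of edgeR 0 of the 14 passed (5 at an unadjusted p below 0.05), against 1.90% of all genes, so a difference between the sexes was not shown. The summed list was at 33.8 to 45.4 CPM in NOD/ShiLtJ f and 15.5 to 19.1 CPM in m livers, against 5.71 to 43.0 and 4.89 to 38 CPM in the others.

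Immunoglobulin constant genes differed by isotype. Of 17 B and plasma cell markers 6 were higher and 2 lower (47.1%), with 7 higher and 1 lower in f and 3 higher and 3 lower in m livers, and 6 were higher and 6 lower without CAST/EiJ, PWK/PhJ and WSB/EiJ. Of all genes 11.4% were higher and 8.86% lower in f, and 13.6% higher and 12.1% lower in m livers. In the m minus f test of edgeR 0 of the 17 passed (4 at an unadjusted p below 0.05), so a difference between the sexes was not shown. Igkc, the kappa light chain constant gene, was at 9.00, 10.8 and 12.5 CPM in f and 5.56, 5.96 and 8.53 CPM in m livers, against a median of 4.56 CPM (log2 fold change 1.09 ± 0.20, adjusted p = 2.94e-05). Igha was higher by 1.95 and Ighg2b by 3.43, with 1.90 to 2.58 CPM in every NOD/ShiLtJ liver and a median of 0.253 CPM elsewhere. Ighg2c was at 0.713 to 1.87 CPM against a median of 0.099 CPM, and Ighg3 at 0 to 0.022 CPM against 0.194 CPM. The fitted values of Ighg2b, Ighg2c and Ighg3 depend on the prior count, since 2, 4 and 2 of the 18 groups had no library above 3 counts. Immunoglobulin constant genes are allelic and closely related, so the division of reads among isotypes is uncertain.

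Of 29 macrophage and Kupffer cell markers 9 were higher and 1 lower (34.5%, against 31.8% of all genes), and 6 were higher and 6 lower without CAST/EiJ, PWK/PhJ and WSB/EiJ. Marco, a scavenger receptor, was at 16.7, 18.8 and 20.9 CPM in f and 7.68, 7.06 and 7.63 CPM in m livers against a median of 3.42 CPM (log2 fold change 1.98 ± 0.27, adjusted p = 1.2e-07, and 1.09 without those strains). Fcgr1, the high-affinity IgG receptor in which NOD is known to carry a variant, was higher by 1.11 (adjusted p = 1.38e-05), and by 0.30 (adjusted p = 0.281) without them. Adgre1, encoding the F4/80 antigen, was higher by 0.44 (adjusted p = 0.0125), and at -0.09 (adjusted p = 0.703) without those strains. Cx3cr1, of monocyte-derived cells, was lower (-1.58), and Slc11a1, the phagosomal metal transporter, did not pass (-0.02, adjusted p = 0.946). Of 24 endothelial, stellate and bile duct markers 12 were higher and 0 lower (50%) in edgeR's test (15 and 0 at an unadjusted p below 0.05), and DESeq2 called 12. Sox9, of bile duct cells, was at 8.86 to 17.9 CPM against a median of 4.16 CPM (log2 fold change 1.6 ± 0.13), with Lum at 1.21 (0.53 without CAST/EiJ, PWK/PhJ and WSB/EiJ) and Lyve1 at 1.12. Of 15 granulocyte markers 0 passed in edgeR's test, 0 passed in DESeq2 and limma, and 0 had an unadjusted p below 0.05, while 2 were called higher without NZO/HlLtJ.

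Of 7 red cell and platelet genes 5 were higher and 0 lower in edgeR's test (6 and 0 at an unadjusted p below 0.05), with a median log2 fold change of 1.41. That is 71.4% called, against 31.8% of all genes. Hba-a1, an alpha globin, was at 61.3, 105 and 28.2 CPM in f and 192, 15.6 and 52.3 CPM in m livers, against a median of 16.2 and a maximum of 119 CPM elsewhere, so that m replicate 2 lay below that median. The log2 fold change of Hba-a1 went from 1.90 to 1.23 without m replicate 1, and that of Hbb-bs from 1.41 (adjusted p = 0.0105) to 0.76 (adjusted p = 0.27). Without f replicate 2 Hbb-bs was at 1.11 (adjusted p = 0.0912), and without CAST/EiJ, PWK/PhJ and WSB/EiJ 3 of the 7 genes were called. The summed blood list was at 51.6 to 393 CPM in NOD/ShiLtJ and at 5.22 to 320 CPM in the others. The part of residual blood in the lymphocyte and immunoglobulin counts was not tested. The single pancreas gene in the table, Cela1, was at 7.58 to 17.2 against 0.567 to 22.5 CPM (0.75, or 0.23 with an adjusted p of 0.244 without CAST/EiJ, PWK/PhJ and WSB/EiJ). Of 6 white adipose genes 1 was called (16.7%), a call that depended on the samples: 0 were called without f replicate 2, m replicate 2, 129S1/SvImJ or DBA/2J, 2 without A/J, without WSB/EiJ or without CAST/EiJ, PWK/PhJ and WSB/EiJ, and 3 without NZO/HlLtJ.

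**Figure D3:**
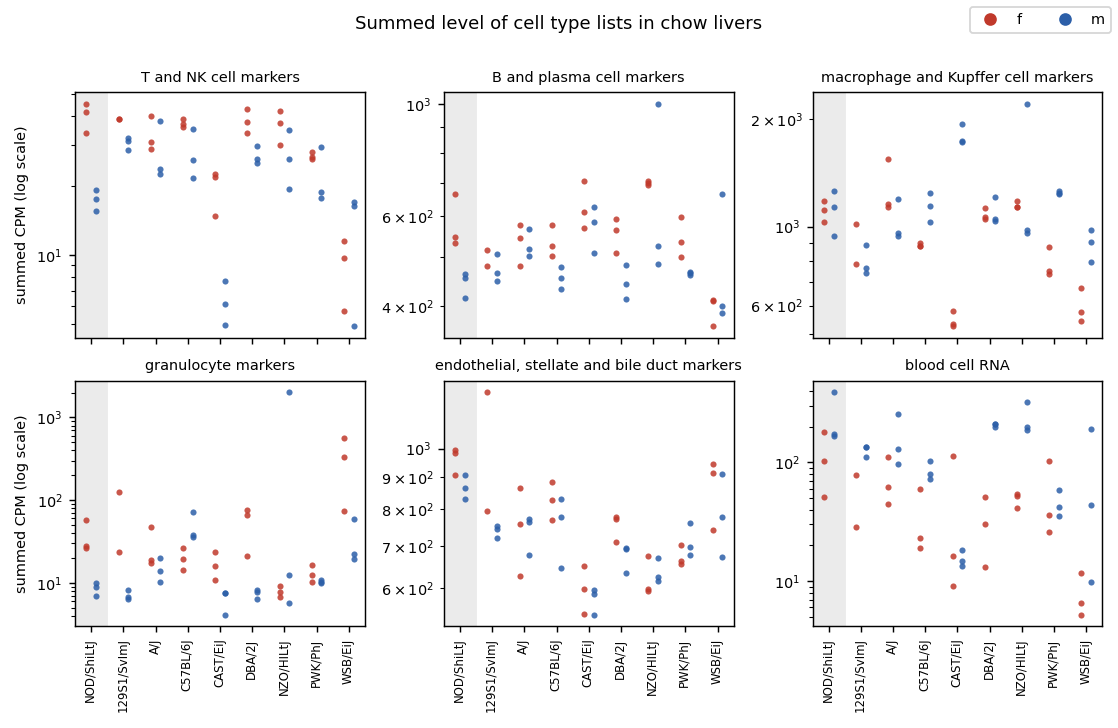
Summed CPM, on a log axis, of 6 cell type lists in each chow liver by strain (f red, m blue; NOD/ShiLtJ shaded). The NOD/ShiLtJ livers sum to 51.6 to 393 CPM in the blood list and to 831 to 994 CPM in the endothelial, stellate and bile duct list, and overlap other strains in all 6 lists.

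Many genes of xenobiotic metabolism differed. These P450 enzymes oxidise drugs, steroids and fatty acids, largely under the nuclear receptors CAR and PXR, and conjugating enzymes then make the products soluble. Of 45 P450 and receptor target genes 18 were higher and 10 lower (62.2% called), and of 46 conjugation and antioxidant genes 22 were higher and 4 lower (56.5%). Cyp3a11, the main drug-oxidising P450 of mouse liver and a PXR target, was at 4226, 4508 and 5784 CPM in f and 5791, 5097 and 6066 CPM in m NOD/ShiLtJ livers. The f livers of the other strains held 58.6 to 2786 CPM, all below NOD/ShiLtJ f, and the m livers 191 to 5419 CPM with a median of 2770. Its log2 fold change was 2.13 ± 0.16 (adjusted p = 1.83e-14), larger in f (2.85) than in m (1.41), a difference of -1.44 (m minus f, adjusted p = 0.0382). Cyp2b9 and Cyp2b13, of a female-biased and CAR-related cluster, were higher by 2.72 and 2.92, with 129S1/SvImJ at 0.32 CPM for Cyp2b9, and by 1.89 and 2.17 without 129S1/SvImJ. Cyp2a4 and Cyp2g1 were lower by -1.70 (-2.30 without m replicate 1) and -2.84 (-3.50 without CAST/EiJ, PWK/PhJ and WSB/EiJ). Nr1i3, encoding CAR, was higher by 0.63 (adjusted p = 0.000389), and Ahr, the dioxin receptor, did not pass (0.17, adjusted p = 0.345), but was called without CAST/EiJ, PWK/PhJ and WSB/EiJ (0.26, adjusted p = 0.0409). Members of the Cyp2a, Cyp2b and Cyp3a clusters share sequence, and their separate counts are uncertain.

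Among the conjugating enzymes, the glutathione transferases Gstm3, Gstm2 and Gstp1 were higher. Gstm3 was at 8.41 to 17.8 CPM in every NOD/ShiLtJ liver against a median of 2.96 CPM (log2 fold change 3.16 ± 0.14, but 2.37 without PWK/PhJ and 1.91 without CAST/EiJ, PWK/PhJ and WSB/EiJ), and Gstm2 was higher by 1.33. As 2 of the 18 groups had no Gstm3 library above 3 counts, its fold change depends on the prior count, and the same holds for Cyp2b13. Gstp1, a male-biased pi class enzyme, was at 173 to 249 CPM in f and 1675 to 2089 CPM in m livers, against medians of 132 and 662 CPM, a log2 fold change of 1.09. Ugt1a9, a glucuronosyltransferase that shares its last exons with the rest of the Ugt1a locus, was higher by 1.33. Nnmt, nicotinamide N-methyltransferase, was the main exception, at 8.06 to 21.5 CPM in f and 1.07 to 8.46 CPM in m livers against a median of 83.9 CPM. Its log2 fold change was -3.21 ± 0.52 (adjusted p = 4.24e-06), although A/J averaged less, and it was -3.85 without m replicate 1 and -2.06 without CAST/EiJ, PWK/PhJ and WSB/EiJ.

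Lipid and glucose genes differed one by one. Cd36, the fatty acid uptake receptor, was at 22.5, 26.2 and 23.7 CPM in f and 18.2, 15.0 and 14.9 CPM in m livers, against 15.6 to 336 CPM with a median of 60.8. NOD/ShiLtJ had the lowest strain mean, and the log2 fold change was -1.99 ± 0.17 (adjusted p = 1.94e-12). Of 30 lipoprotein and lipid droplet genes 6 were higher and 5 lower (36.7%, against 31.8% of all genes). Lpin1, a phosphatidate phosphatase, was higher by 1.6 (adjusted p = 0.000863), and Apoa4 lower by -0.99 (adjusted p = 0.00196), or -0.40 (adjusted p = 0.264) without CAST/EiJ, PWK/PhJ and WSB/EiJ. Of 25 fatty acid oxidation genes 8 were higher and 1 lower (36%). In f livers 6 were higher and 1 lower (11.4% and 8.86% of all genes were). In m livers 0 were higher and 1 lower (13.6% and 12.1% of all genes were). In the m minus f test of edgeR 0 of the 25 passed (5 at an unadjusted p below 0.05), so a difference between the sexes was not shown. Pdk4, the kinase that restrains pyruvate dehydrogenase, was higher by a log2 fold change of 1.23, and Cyp4a31 lower by -1.72. Without f replicate 2, f replicate 3 or m replicate 3, 5, 5 and 4 genes of that list were called in place of 9, and without NZO/HlLtJ 4.

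Of 22 genes of insulin-induced lipogenesis and glycolysis 3 were higher and 2 lower (22.7%), 3 being called without f replicate 3. Without f replicate 2 the split was 2 higher and 3 lower, and without CAST/EiJ, PWK/PhJ and WSB/EiJ 4 and 5. Acaca, acetyl-CoA carboxylase, was higher by 0.74 ± 0.10 (adjusted p = 2.63e-07), and Srebf1, the lipogenic transcription factor, lower by -0.62 (adjusted p = 0.0172), a call lost without f replicate 3 (adjusted p = 0.0601) or NZO/HlLtJ (0.122). Scd1 spread from 172 to 1819 CPM within NOD/ShiLtJ f and did not pass (adjusted p = 0.436). It was called lower without f replicate 2 (-1.17, adjusted p = 0.010) or without CAST/EiJ, PWK/PhJ and WSB/EiJ (-1.09, adjusted p = 0.0412). Pck1, the gluconeogenic enzyme induced when insulin is lacking, was at 3535 to 6341 CPM against a median of 4527 CPM (0.09, adjusted p = 0.683), and Igfbp1 and Irs2 did not pass either (-0.12 and 0.53, adjusted p = 0.844 and 0.0893). Without CAST/EiJ, PWK/PhJ and WSB/EiJ Igfbp1 stood at 0.57 (adjusted p = 0.0941), and Irs2 was called without CAST/EiJ, WSB/EiJ or C57BL/6J (adjusted p of 0.0247 to 0.0386) or all 3 of CAST/EiJ, PWK/PhJ and WSB/EiJ (0.00932). Of 19 gluconeogenesis genes 4 were higher and 1 lower (26.3%), among them G6pc at 0.61 (adjusted p = 0.0163) and Sds at -0.61 (adjusted p = 0.00487). The G6pc call was lost without f replicate 2, m replicate 1 or m replicate 2 (adjusted p of 0.0504 to 0.0634), and the list had 3 calls without f replicate 2 and 2 without m replicate 1.

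Bile acid genes included 6 higher and 2 lower of 21 (38.1%, against 31.8% of all genes). Slco1a1, an organic anion uptake transporter of male liver, was at 214, 249 and 318 CPM in f and 618, 977 and 582 CPM in m livers. All 3 f values lay above the 5.15 to 93.5 CPM of the other f livers, and the log2 fold change was 2.05 ± 0.20 (adjusted p = 7.32e-11). Nr0b2, the repressor SHP, was at 60.2 to 119 CPM against a median of 37.6 CPM (1.25 ± 0.28, adjusted p = 0.000564). Of 24 cholesterol synthesis genes 5 were higher and 1 lower (25%), led by Hmgcs1 at 0.85 (adjusted p = 6.87e-05). Without f replicate 3 or without CAST/EiJ, PWK/PhJ and WSB/EiJ the list had 2 calls, and 3 without f replicate 2, m replicate 2, m replicate 3, CAST/EiJ or WSB/EiJ and in limma. In the list for endoplasmic reticulum stress 2 of 21 were called (9.52%), Asns at -2.60 (-1.89 without CAST/EiJ, PWK/PhJ and WSB/EiJ) and Atf3 at -1.47, both with the lowest strain mean of 9, and without those strains 3 were higher and 2 lower.

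Clock genes differed in both directions. The liver clock is a feedback loop in which CLOCK and its partner drive Per, Cry and the PAR-domain factors Dbp and Tef through E-boxes, and Dbp-type factors act through D-boxes. Of 19 clock genes 3 were higher and 5 lower (42.1% called, against 31.8% of all genes), and NOD/ShiLtJ had the highest mean of the 9 strains for 5 and the lowest for 4. In f livers 2 were higher and 5 lower (median -0.27), and in m livers 3 were higher and 1 lower (median 0.32). Of all genes 11.4% were higher and 8.86% lower in f, and 13.6% higher and 12.1% lower in m livers. In the m minus f test of edgeR 1 of the 19 passed (4 at an unadjusted p below 0.05), against 1.90% of all genes. The balance turned in other settings as well: 6 were higher and 5 lower in limma and without m replicate 3, and 8 were higher and 6 lower without CAST/EiJ, PWK/PhJ and WSB/EiJ. All 8 called genes are named here, 4 of them (Tef, Nr1d2, Bhlhe40 and Clock) after their values were seen. Dbp was at 0.795, 0.616 and 0.417 CPM in f and 3.21, 1.07 and 14.8 CPM in m livers, against a median of 13.4 CPM in a range of 0.535 to 93.4 (log2 fold change -2.69 ± 0.66, adjusted p = 0.00154). The 3 f livers were among the lowest of all, and m replicate 3 was near the median. Without m replicate 3 the log2 fold change of Dbp was -3.46. Nr1d2, the nuclear receptor REV-ERB beta, was at 8.78, 15.7 and 19.5 CPM in f and 41.6, 42.3 and 66.6 CPM in m livers, against medians of 44.5 and 49.0 CPM. Its difference was -1.57 in f and 0.18 in m, and the m minus f difference of 1.75 ± 0.37 passed (adjusted p = 0.00751). Tef was at 31.0 to 37.6 CPM in f and 52.4 to 120 CPM in m livers against a median of 89.2 CPM (-0.71 ± 0.21, adjusted p = 0.00703). Cry1, a repressor of the loop, was higher in both sexes, with 21.2 to 25.3 CPM in f and 15.6 to 22.5 CPM in m livers against a median of 9.91 CPM (1.03 ± 0.20, adjusted p = 9.59e-05). Bhlhe41 and Per3 were lower (-1.26 and -1.05), and Bhlhe40 and Clock higher (0.73 and 0.26). The call of Per3 was lost without any of 5 single NOD/ShiLtJ libraries, all but m replicate 3 (adjusted p of 0.056 to 0.108). The labels give a window for the harvest, not the hour for each mouse.

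**Figure D4:**
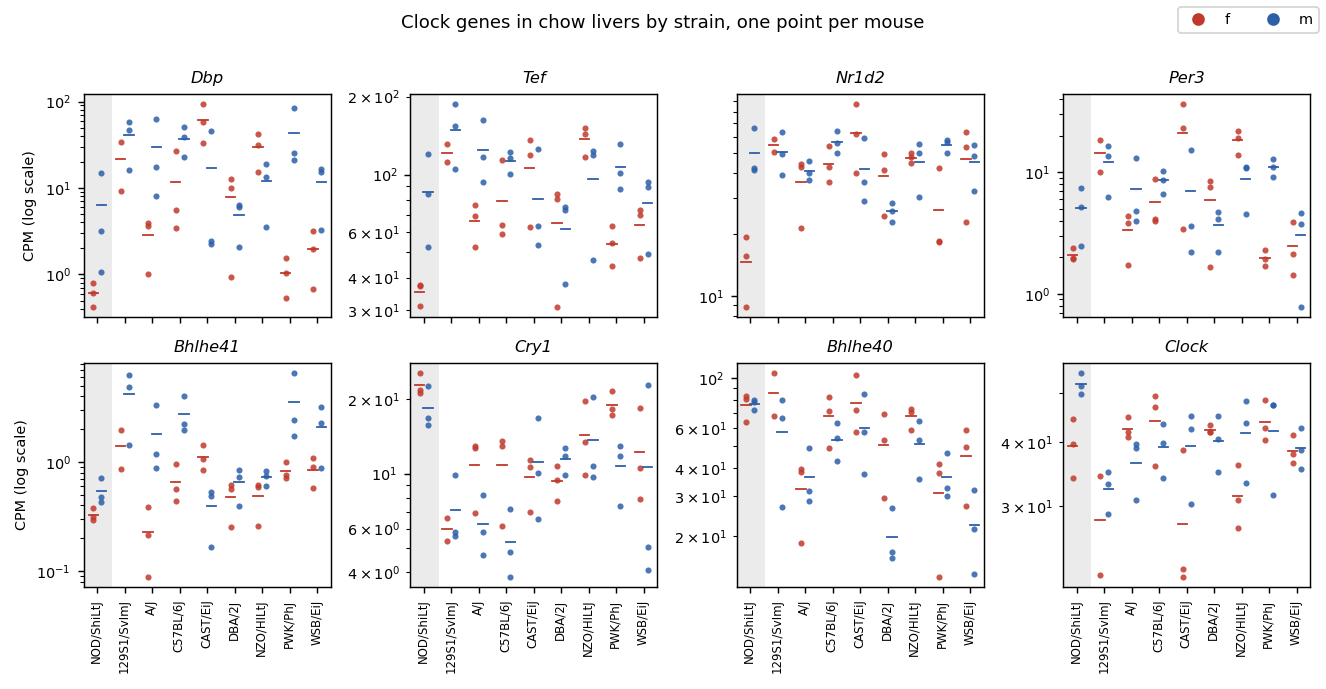
CPM on a log axis of the 8 called clock genes in the chow livers of 9 strains, 1 point per mouse (f red, m blue), with the mean of each strain and sex as a bar and NOD/ShiLtJ shaded. Dbp, Tef and Nr1d2 lie at the low end in the NOD/ShiLtJ f livers, and Cry1 lies above most livers of the other strains in both sexes.

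Shown are the promoters of the 4 called clock genes that hold either motif, Bhlhe41, Tef and Per3 among the lower and Cry1 among the higher ones, with capitals on a motif found in the 250 bases before the gene's start (RefSeq table, GRCm38.p6). The E-box was searched as CACGTG and the D-box as TTATGTAA, on both strands, and no window shown holds both motifs. Of the 32851 promoters listed by RefSeq, 6.02% hold that E-box and 0.819% that D-box in the 250 bases. Of the 16 clock genes with an entry 5 hold the E-box and 1 the D-box, and the called Dbp, Nr1d2 and Clock hold neither. The called Bhlhe40 has no promoter entry. These counts are per gene with a match in any listed promoter, of which Clock has 3, so they are not like the shares per promoter. Tef has 2 listed promoters with 2 E-box matches in all, and 1 of these promoters is shown. The windows are chr15:81802423-81802672, plus strand, for Tef, chr6:145865421-145865670, minus strand, for Bhlhe41, chr10:85185055-85185304, minus strand, for Cry1, and chr4:151044666-151044915, minus strand, for Per3.
Tef: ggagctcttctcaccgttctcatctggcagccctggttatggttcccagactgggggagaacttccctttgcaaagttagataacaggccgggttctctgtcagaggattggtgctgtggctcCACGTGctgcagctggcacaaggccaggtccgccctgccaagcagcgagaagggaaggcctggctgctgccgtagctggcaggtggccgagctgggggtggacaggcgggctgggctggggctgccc
Bhlhe41: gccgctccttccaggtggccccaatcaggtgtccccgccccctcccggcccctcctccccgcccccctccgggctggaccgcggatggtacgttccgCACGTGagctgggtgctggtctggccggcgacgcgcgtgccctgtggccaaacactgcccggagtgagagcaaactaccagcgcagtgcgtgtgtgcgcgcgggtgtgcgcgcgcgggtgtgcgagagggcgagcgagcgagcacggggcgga
Cry1: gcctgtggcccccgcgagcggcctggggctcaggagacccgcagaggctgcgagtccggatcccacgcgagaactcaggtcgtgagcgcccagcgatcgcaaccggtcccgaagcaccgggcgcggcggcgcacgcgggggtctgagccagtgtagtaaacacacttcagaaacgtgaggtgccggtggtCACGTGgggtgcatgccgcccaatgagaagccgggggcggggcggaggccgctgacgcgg
Per3: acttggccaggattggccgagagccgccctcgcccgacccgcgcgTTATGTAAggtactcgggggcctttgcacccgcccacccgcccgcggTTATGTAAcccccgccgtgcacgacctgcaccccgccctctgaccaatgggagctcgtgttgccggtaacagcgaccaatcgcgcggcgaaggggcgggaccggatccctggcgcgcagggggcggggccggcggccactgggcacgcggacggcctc
The E-box begins 127 bases before the start in Tef, 153 in Bhlhe41 and 60 in Cry1, and Per3 has 2 D-boxes, the first 205 bases before the start. The same E-box thus stands before genes that were lower and a gene that was higher in NOD/ShiLtJ. A match to these letters is a description of the reference and no measure of binding.

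The strain difference depended on sex for 272 genes (1.90% of those tested), 154 higher (1.07%) and 118 lower (0.823%) in the m minus f contrast. In f mice alone 2900 genes were called (20.2%), 1630 higher (11.4%) and 1270 lower (8.86%). In m mice alone 3677 were called (25.7%), 1943 higher (13.6%) and 1734 lower (12.1%). Of the 272 genes, 206 had fitted differences of opposite sign in the 2 sexes. The count fell to between 56 (without f replicate 2) and 153 (without f replicate 3) when 1 NOD/ShiLtJ library was left out, and was 72 without f replicate 1, 114, 103 and 121 without m replicates 1, 2 and 3. The f count was 1725 without f replicate 2 and 1790 without f replicate 3, and the m count 2285 without m replicate 2.

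Dio1, the deiodinase that activates thyroid hormone in liver, was at 16.2, 20.6 and 13.8 CPM in f and 2.43, 1.69 and 1.42 CPM in m NOD/ShiLtJ livers, while the other strains held 18.2 to 207 CPM in f and 12.2 to 232 CPM in m. The m livers lay below all other livers and the f livers at the low end, with log2 fold changes of -2.39 in f and -5.56 in m and a difference of -3.17 ± 0.55 (adjusted p = 0.000998). Cyp2a22 was at 91.2, 114 and 63.1 CPM in f and at 0.724, 0.974 and 1.90 CPM in m livers (difference -3.98 ± 0.49, adjusted p = 2.39e-06). Rsph4a, a radial spoke gene of cilia, and Gm10327 were high in f and near 0 in m, with differences of -3.68 and -2.83, of which that of Rsph4a depends on the prior count because 1 group had no library above 3 counts. Serpina1e, an alpha-1 antitrypsin paralogue of male liver, was at 39.8 to 48.8 CPM in f and 51.2 to 57.6 CPM in m livers, against m values of 75.8 to 15446 CPM elsewhere (difference -2.92 ± 0.40). The related Serpina1c was higher in both sexes (1.86 ± 0.12, adjusted p = 2.86e-16), by 0.83 without PWK/PhJ and by 0.62 without CAST/EiJ, PWK/PhJ and WSB/EiJ, and reads of these paralogues are hard to assign.

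In the other direction, Gm6614 was at 0.277, 0.338 and 0.271 CPM in f and 10.9, 16.4 and 7.54 CPM in m NOD/ShiLtJ livers, and no other liver exceeded 0.758 CPM. Its m minus f difference was 4.32 ± 0.56 (adjusted p = 5.27e-06). Cyp2b10, the classical CAR target, had like levels in both sexes of NOD/ShiLtJ (18.1 to 29.2 CPM in f and 19.5 to 37.9 CPM in m). Elsewhere it was a female-biased gene, with medians of 29.0 CPM in f and 0.698 CPM in m livers, so that the difference was 4.27 ± 0.85 (adjusted p = 0.0045). Sult2a1, a female-biased sulfotransferase, was at 16.6, 12.8 and 6.26 CPM in NOD/ShiLtJ f livers, all below the 20.8 to 1300 CPM of other f livers, and at 0.19 to 0.509 CPM in NOD/ShiLtJ m livers against an m median of 0.285 and maximum of 207 CPM (difference 4.08 ± 0.78, adjusted p = 0.00336). Mup9 and Mup7 had differences of 4.81 and 3.62, with 0.021 to 0.159 and 0.037 to 0.271 CPM in f and 18.7 to 25.9 and 298 to 354 CPM in m livers. Since these f levels are near the floor, the size of both differences depends on the prior count. In the list of 22 female-biased genes 8 were higher and 4 lower (54.5%), but 3 higher and 4 lower without f replicate 2 or without CAST/EiJ, PWK/PhJ and WSB/EiJ, 4 and 7 without m replicate 1 or without WSB/EiJ, and 5 and 6 in limma. Of 18 male-biased genes 5 were higher and 2 lower (38.9%), and 5 and 5 without m replicate 2 or without WSB/EiJ. Esr1, the oestrogen receptor, had its lowest strain mean in NOD/ShiLtJ (-0.56 ± 0.19, adjusted p = 0.0196), among 18 growth hormone and IGF axis genes with 1 higher and 2 lower (16.7% called, against 31.8% of all genes). The Esr1 call was lost without f replicate 2 or 3 or m replicate 1 or 3 (adjusted p of 0.0594 to 0.0821), or without CAST/EiJ (0.0525).

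**Figure D5:**
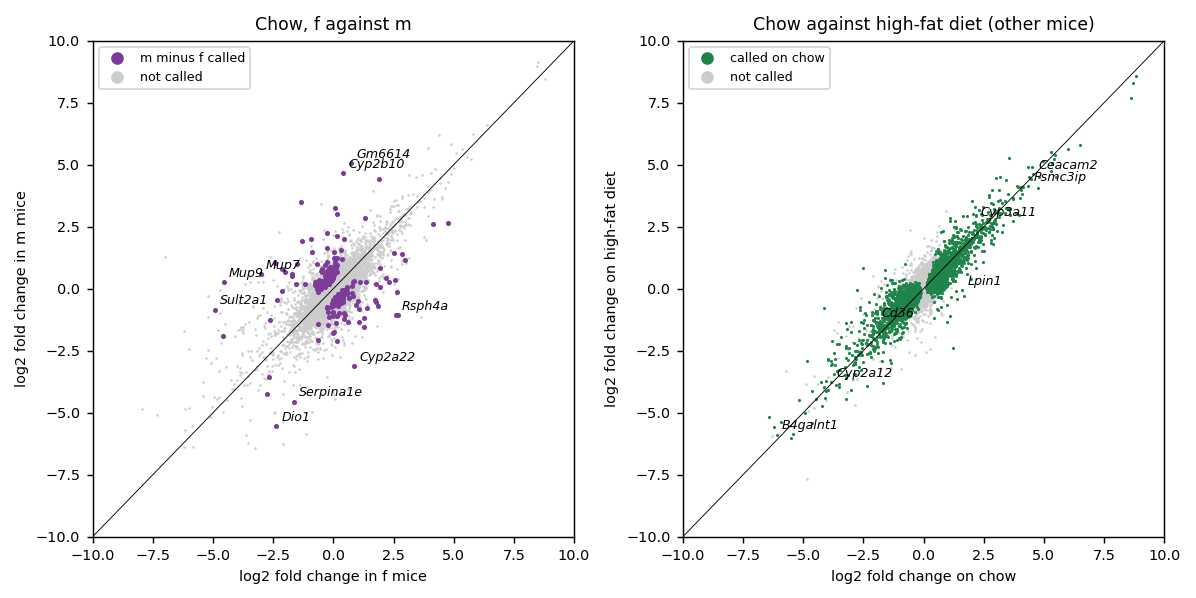
Left, log2 fold change of NOD/ShiLtJ against the other strains in m mice against that in f mice, with the 272 genes of a called m minus f difference in purple; right, the same fold change averaged over sexes on the high-fat diet against that on chow, with the 4559 genes called on chow in green. The line marks equal values, and B4galnt1 and Ceacam2 lie near it in the right panel.

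The same contrast in 6 NOD/ShiLtJ and 46 other mice on the high-fat diet, which share no mouse with the chow comparison, called 5230 genes (36.5%), 2679 higher (18.7%) and 2551 lower (17.8%). Of the 4559 genes called on chow, 3141 were called in the same direction there, which is 68.9% of the chow calls and 60.1% of the high-fat calls, and 12 were called in the opposite direction. Of the 1009 with a log2 fold change of at least 1, 883 (87.5%) were called the same way. B4galnt1 averaged 1.67 against 96.2 CPM and Cyp2a12 50.7 against 629 CPM on the high-fat diet, and Psmc3ip 6.82 against 0.394 CPM. Dio1 (-2.83), Cyp3a11 (2.71), Cyp46a1 (4.07) and H2-K1 (-1.97) repeated as well. Lpin1 did not, with -0.07 (adjusted p = 0.941), nor did Mt1 (0.33, adjusted p = 0.42) and Bhlhe40 (-0.35, adjusted p = 0.0684), and whether these differences depend on diet was not tested. Of the 28 called P450 and receptor target genes 23 were called the same way on the high-fat diet, of the 26 conjugation genes 21, of the 17 antigen presentation genes 16, and of the 8 clock genes 7. Of other lists, the same direction was called for 6 of the 12 called female-biased genes, 3 of the 9 of fatty acid oxidation, 3 of the 7 of the acute phase, 2 of the 5 of lipogenesis and 2 of the 5 of gluconeogenesis. Of the 6 called cholesterol synthesis genes 0 were called the same way in edgeR's test, and on the high-fat diet 0 of that list were higher and 8 lower.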

How the data were processed

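Liver RNA-seq counts of 106 mice were taken from the table the authors deposited, with 1 column per library. All values are whole counts as deposited (100% whole, 0 identical columns), although the table is named for TMM. FastQC, STAR 2.73a and edgeR 3.24.3 are named in the submitters' processing notes, with their use not given in the sources used here. Genome build, gene models and strand of counting are likewise not given. Lines of reads outside genes were kept out of library sizes. Symbols and positions of 14321 of 14330 genes came from GENCODE M21 (GRCm38).

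The 53 chow libraries were fitted in 18 groups of strain and sex with edgeR 4.0.16 in R 4.3.3 (TMM factors 0.837 to 1.13, common dispersion 0.044, 35 residual degrees of freedom). The contrast was NOD/ShiLtJ minus the mean of 8 strains, with the Benjamini-Hochberg method over all genes. High-fat libraries had a fit of their own. CPM use TMM-scaled library sizes. In the text, SD is over mice or strain means and SE is from the fit. The labels do not say whether the mice of a group were littermates. The 26 lists, the panel of 20 genes and the members were chosen with earlier results of these data known, and lists carry no set test. Named genes were the 12 largest non-overlapping changes in each direction with at least 1 CPM, the 8 largest among genes of at least 50 CPM, the panel, the 4 largest called members of each list and the 5 largest sex differences each way, of which a part is printed. Tap1, F12, Mt1, Hamp, Cyp3a11, Nr1i3, Gstp1, Tef, Nr1d2, Bhlhe40, Clock, Fcgr2b, Gm10039, Gm48837 and the Mup and mitochondrial genes fall outside that rule or were added after their values were seen. Cd3e of the panel was not analysed here.

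On simulated counts for 14330 genes, the averaged contrast called 81% of 100 genes changed 1.5-fold and 96% of 100 changed 2-fold, with 8.19% false calls. The m minus f contrast called 88% of 100 genes changed 4-fold in m only, and 1.12% of its calls were false. All simulated strains shared 1 mean per gene and few genes were changed, unlike the real livers. The simulation therefore does not give the false share in the real data. Alternatives were RLE factors, DESeq2 1.42.0, limma 3.58.1, a filter of at least 1 CPM in 3 libraries, both diets in 1 fit, the left-out library kept, single libraries or strains left out, and strain means as the unit.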

Additional observations from a re-analysis of the deposited data

Results flagged for a closer look

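The difference between NOD/ShiLtJ and the other strains was itself different in m and f mice for 272 genes, by the test of the m minus f contrast in edgeR's quasi-likelihood fit. The largest negative differences with at least 1 CPM and off the sex chromosomes were those of Cyp2a22 (-3.98), Rsph4a (-3.68), Dio1 (-3.17), Serpina1e (-2.92) and Gm10327 (-2.83). The largest positive ones were those of Mup9 (4.81), Gm6614 (4.32), Cyp2b10 (4.27), Sult2a1 (4.08) and Mup7 (3.62). All are log2 values.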

How the results depend on the processing

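No paired analysis was possible because the labels give the mice no replicate numbers, and numbers here only name libraries. The 4559 calls were 4 with strain means as the unit and 1009 with a minimum log2 fold change of 1. Other settings gave 4042 to 5152, and leaving out single NOD/ShiLtJ libraries 3620 to 4196. With 1 library left out, the f count ranged from 1725 to 2867, the m count from 2285 to 3642, the m minus f count from 56 to 153, and the non-overlapping genes from 43 to 52. Non-overlapping genes were 63 without PWK/PhJ and 147 without CAST/EiJ, PWK/PhJ and WSB/EiJ. Of 134 named genes called, 131 kept their sign under all 22 settings, and 101 were called under each but strain means. Of these, Adgre1 (-0.094) and Msmo1 (-0.010) turned without CAST/EiJ, PWK/PhJ and WSB/EiJ, and Igfbp2 (-0.034) without NZO/HlLtJ. H2-Eb1, not called with all strains, was called at -1.06 without those 3 strains. The fits without strains use fewer samples. Each genotype is a single inbred strain, and 3 mice of a sex limit the precision more for the sex contrasts.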

Other observations

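Gene products of the mitochondrial genome were not among the lists, and were looked at after the values were seen. Among 16 such genes tested, 4 were called higher and 9 lower, where 16.1% of all genes were called higher and 15.7% lower. With f and m averaged, the 12S ribosomal RNA gene mt-Rnr1 was highest of the 9 strains (log2 fold change 1.14 ± 0.12, adjusted p = 2.24e-10). Its NOD/ShiLtJ means were 1037 CPM in f and 2050 CPM in m. The other strains, with f and m averaged, were at 531 to 1135 CPM, so that the f mean alone lay inside that range. The abundant mt-Co1, a subunit of cytochrome oxidase, was at 15460 and 15974 CPM against a mean of 13866 CPM. For mt-Co1 NOD/ShiLtJ ranked 5 of 9 strains, inside the 7689 to 17305 CPM of the other strain means. In contrast mt-Atp6, mt-Co2 and mt-Co3 were listed at 2.71 to 4.46 CPM in NOD/ShiLtJ f and m means and at 3.53 to 19.0 CPM in the other strain means, far below mt-Co1, and near copies of these genes in the nuclear genome make their unique counts uncertain. The nuclear pseudogene Gm13339 averaged 1.04 CPM in NOD/ShiLtJ, 1.40 to 3.21 CPM in 6 strains, and 1810 and 1918 CPM in PWK/PhJ and CAST/EiJ.

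The pseudogene Gm10039 was, beside B4galnt1, Cyp2a12 and Psmc3ip, the fourth gene called with strain means as the unit (limma adjusted p = 0.0343). It was at 15.9 to 20.2 CPM in the 6 NOD/ShiLtJ livers and at 0.711 to 2.28 CPM in the others.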
